A study of Mus musculus with 20 samples.

Results

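The epididymal white adipose tissue (eWAT) of obese mice given SZ-A was compared with that of lean mice on normal chow (NC), to describe what still differed from lean fat after treatment and what lay at the chow level. SZ-A is an alkaloid preparation from the twigs of mulberry (Ramulus Mori). The comparison used 13 of the 20 mice, all 7 SZ-A mice and all 6 NC mice, and 14718 of the 14776 genes deposited, those that averaged 0.1 FPKM or more in the 13 mice (FPKM, fragments scaled to exon length and library size). All mice were C57BL/6J. They entered the study at 6 weeks of age and received normal chow or a high-fat diet (HFD) for 14 weeks. The HFD mice were then given saline (the HFD group, 7 mice) or SZ-A (the SZ-A group, 7 mice) for 6 weeks. Both of these groups stayed on the HFD during those weeks. SZ-A and NC mice therefore differed in both diet and treatment, which cannot be told apart in this comparison, and the values of the HFD mice are set beside them.

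Lean eWAT holds adipocytes, vessels, fibroblasts and resident macrophages, which carry scavenger receptors such as Cd163 and Lyve1. In obesity, macrophages gather around dying adipocytes, take up their lipid and switch on lysosomal enzymes and lipid-handling genes. These lipid-associated macrophages are known by Trem2, a lipid receptor, with its adaptor Tyrobp, and by Gpnmb, Spp1, Cd9 and Itgax. Obese fat also lays down collagen and changes its adipokines, the hormones that adipocytes secrete.

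The promoters of 3 genes of the lipid-associated macrophage list with large residual differences are shown first, and no result below rests on these sequences. Gpnmb codes for a lysosomal glycoprotein, Mmp12 for macrophage elastase and Trem2 for the lipid receptor. Sequences are from RefSeq (GRCm38.p6), 250 bases before to 50 bases after each start, 5′ to 3′, and Mmp12 has 2 such windows. Capitals mark any match, on either strand, to a set of short strings described after the sequences.
Gpnmb, chr6:49036268-49036567, plus strand: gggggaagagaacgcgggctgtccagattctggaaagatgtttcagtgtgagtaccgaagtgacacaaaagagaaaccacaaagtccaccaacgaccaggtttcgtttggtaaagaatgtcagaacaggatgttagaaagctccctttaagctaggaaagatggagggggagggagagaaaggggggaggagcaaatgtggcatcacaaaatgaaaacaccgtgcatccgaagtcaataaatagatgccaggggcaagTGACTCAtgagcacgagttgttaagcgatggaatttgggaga
Mmp12, chr9:7344147-7344446, plus strand: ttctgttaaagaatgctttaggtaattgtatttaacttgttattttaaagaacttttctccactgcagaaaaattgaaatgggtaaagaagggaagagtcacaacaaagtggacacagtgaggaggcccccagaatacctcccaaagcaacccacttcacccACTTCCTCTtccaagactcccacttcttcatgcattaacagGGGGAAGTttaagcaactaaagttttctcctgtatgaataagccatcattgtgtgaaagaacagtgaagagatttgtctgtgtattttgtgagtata
Mmp12, chr9:7347124-7347423, plus strand: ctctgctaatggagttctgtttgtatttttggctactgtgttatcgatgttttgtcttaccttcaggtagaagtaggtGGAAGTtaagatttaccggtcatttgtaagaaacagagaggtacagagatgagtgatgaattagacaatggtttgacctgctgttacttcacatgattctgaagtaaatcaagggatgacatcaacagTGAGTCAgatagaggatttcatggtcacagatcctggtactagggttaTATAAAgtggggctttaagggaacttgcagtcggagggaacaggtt
Trem2, chr17:48346151-48346450, plus strand: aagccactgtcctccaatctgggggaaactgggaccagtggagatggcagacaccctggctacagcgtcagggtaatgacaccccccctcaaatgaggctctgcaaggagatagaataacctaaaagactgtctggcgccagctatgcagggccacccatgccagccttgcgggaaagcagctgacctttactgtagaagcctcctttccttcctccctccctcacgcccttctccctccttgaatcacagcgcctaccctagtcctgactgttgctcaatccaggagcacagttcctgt

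In all, 10 strings were searched on both strands, and they were chosen after the data were seen. A window was found for 10748 deposited genes, among them 16 of the 21 genes of the lipid-associated macrophage list, 13 pan-macrophage, 29 proton pump and lysosome, 21 other matrix and 21 adipocyte genes, and counts below follow that order of the lists. The string CACGTG was in 11.5% of all genes with a window and in 3, 0, 10, 1 and 2 of the lists. Its longer form TCACGTGA was in 2.11% of all and in 1, 0, 6, 1 and 0, and the same with a further G before and C after it was in 0.763% of all and in none of the lists. The string GGAAGT was in 32.0% of all and in 8, 8, 13, 4 and 3. Among its longer forms GAGGAAGT was in 3.73% of all and in 2, 2, 3, 0 and 0. With a further A before it, as AGAGGAAGT, it was in 1.34% of all and in 1, 1, 1, 0 and 0. The form GGGGAAGT was in 2.01% of all and in 2, 0, 2, 0 and 1. The string TGAGTCA, counted with the last string searched, its reverse complement, was in 4.61% of all and in 4, 2, 3, 1 and 1. The string TATAAA was in 8.95% of all and in 3, 1, 4, 3 and 4. The Trem2 window held none of the 10 strings. These counts describe letters only and were not tested.

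Before the comparison, one library stood apart. NC replicate 6 had 26.6 FPKM of Adipoq, the adipocyte hormone adiponectin, whereas the other NC mice had 860 to 2278. Its mean over the 30 genes of the adipocyte list was 3.72 on the log2(FPKM + 1) scale, against 6.25 to 7.45 in the other NC mice. It also had the highest mean of the epididymal epithelium markers, 8.48, and its profile correlated with the mean of the other NC mice at 0.753, against 0.887 to 0.975 for the others. Only 7 of 20 epididymal epithelium markers were among the genes tested. Their mean was 6.27, 5.47, 2.43, 4.63 and 4.49 in NC replicates 1 to 5. It was 7.09 in SZ-A replicate 2 and 5.36 in SZ-A replicate 7, against 2.17 to 3.01 in the remaining 5 SZ-A mice. SZ-A replicate 5 had 11.6% of its reads on mitochondrial genes, the highest share of the SZ-A mice, whose median was 3.53%. Reads on the deposited genes, recovered from FPKM and exon length, ran from 13567667 to 18717598 in the 13 mice. Counts over all genes, and the genes whose difference or call moved most, are therefore given with and without NC replicate 6, and in bulk tissue fewer cells of a type and less RNA per cell cannot be told apart.

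**Figure D1:**
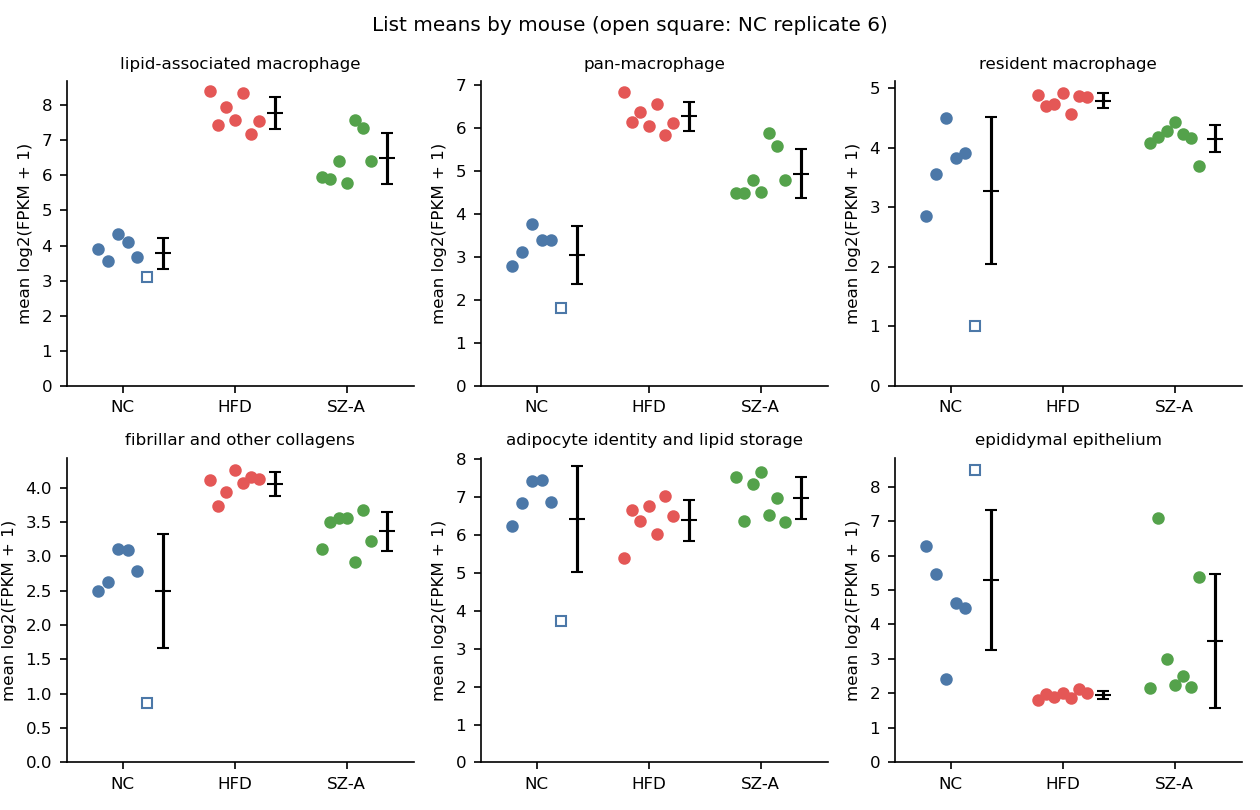
Mean log2(FPKM + 1) over 6 gene lists in each mouse (points) with the group mean and SD beside them, for NC (n = 6), HFD (n = 7) and SZ-A (n = 7); the open square is NC replicate 6. The lipid-associated macrophage means run from 5.79 to 7.57 in SZ-A mice, above the NC range of 3.09 to 4.33, and the highest epididymal epithelium mean is that of NC replicate 6.

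Among the deposited genes, each above 0 in every mouse, SZ-A-treated fat differed from lean fat mostly by genes that were higher. Genes at 0 in any mouse could not be compared in either direction. With limma on log2(FPKM + 1), Benjamini-Hochberg adjustment over all 14718 genes and a threshold of adjusted p under 0.05 with a log2 difference above 1.5, SZ-A mice had 255 genes higher (1.73% of those tested) and 8 lower (0.0544%). Without NC replicate 6 the counts were 213 (1.45%) and 18 (0.122%), and 197 of the higher and 7 of the lower genes were past the threshold in both fits. Of the 255 higher genes, 198 had no SZ-A mouse within the NC range, while 3.22% of all genes tested lay entirely above it. None of the 8 lower genes was free of overlap, against 0.347% of all genes lying entirely below. The count of lower genes rested on single mice, being 41 without NC replicate 3 and 2 without NC replicate 2, NC replicate 5 or SZ-A replicate 6, and with array quality weights the counts were 209 higher and 140 lower. The HFD mice, set beside them, had 799 genes higher (5.43%) and 373 lower (2.54%) than the same NC mice. Against the HFD mice, SZ-A mice had 45 genes higher (0.306%) and 82 lower (0.558%) by the same limits. Because a p-value that misses the threshold does not show equal levels, a gene is called close to the chow level here only where the 95% interval of its log2 difference lay inside 1 in both directions. That held for 10628 genes (72.2%), and for 11354 (77.1%) without NC replicate 6. With 6 NC mice the remaining 3827 genes were neither past the threshold nor inside this interval. The count inside 1 also depended on the number added to FPKM, being 7154 with log2(FPKM + 0.01). The same interval can hold for HFD mice against NC mice, so lying inside 1 does not by itself show a return after treatment.

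The largest rises included macrophage receptors, proteases and a lysosomal glycoprotein. Mmp12 had the largest difference of all, 5.02 ± 0.51 on the log2 scale (SE; adjusted p = 0.00021, limma). Its level was lowest at 0.199, median 2.15 and highest 9.38 FPKM in NC mice and 47.8, 77.3 and 223 FPKM in SZ-A mice, so the groups did not overlap. Gpnmb followed at 4.91 ± 0.47 (adjusted p = 0.00021, limma), from a median of 6.92 FPKM in NC to 197 FPKM in SZ-A mice. The others of the 10 largest rises without overlap were Adam8, a membrane protease of leukocytes (4.32), Lgals3, the lectin galectin-3 (4.08), Vsig8 (4.04), Trem2 (4.02), F7, coagulation factor VII (4.01), Ctsk, the collagen-degrading cathepsin K (3.99), Ubd, a ubiquitin-like protein induced by inflammatory cytokines (3.94) and Itgb2, the beta chain of leukocyte integrins (3.92). All 10 remained past the threshold without NC replicate 6, with log2 differences of 3.55 for Lgals3 and Itgb2 at the lowest and 5.07 for Gpnmb at the highest.

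Of the largest rises named above, Ubd, F7, Vsig8 and Lgals3 did not differ past the threshold between SZ-A and HFD mice. The SZ-A against HFD difference of Vsig8 was -1.16 (adjusted p = 0.117, limma). That of Lgals3 was -1.34 (adjusted p = 0.0261, limma), short of the log2 limit. Ubd ran from 63.7 to 97.0 FPKM in SZ-A mice and from 54.7 to 174 FPKM in HFD mice, against 0.811 to 8.81 FPKM in NC mice. The SZ-A against HFD difference of Ubd was -0.32 (adjusted p = 0.342, limma). F7 ran from 9.97 to 129 FPKM in SZ-A mice and from 26.1 to 53.0 FPKM in HFD mice, with a difference of -0.76 (adjusted p = 0.257, limma), while no NC mouse exceeded 1.27 FPKM. A missed threshold does not show that the SZ-A and HFD levels were equal.

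Genes of lipid-associated macrophages remained well above lean fat. Of its 21 genes, all tested, 16 were higher, none was lower and none had an interval inside 1, beside 1.73% and 72.2% of all genes tested. The median log2 difference of the list was 2.55, against 0.00 over all genes tested. Without NC replicate 6 it was 2.02, again 16 genes were higher, and 1, Acp5, had an interval inside 1. The 7 HFD mice had a list median of 4.14 over the same NC mice. Trem2 had a lowest, median and highest level of 0.680, 1.20 and 2.05 FPKM in NC mice, and of 16.8, 31.0 and 136 FPKM in SZ-A mice. HFD mice held 65.3, 95.1 and 166 FPKM of Trem2, and the SZ-A against HFD difference was -1.59 (adjusted p = 0.0137, limma). SZ-A mice thus lay above every NC mouse, and their median lay below the lowest HFD mouse.

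For the members that follow, the SZ-A median lay between those of NC and HFD mice. Itgax, the integrin CD11c, had a median of 1.57 FPKM in NC, 26.0 FPKM in SZ-A and 93.5 FPKM in HFD mice. Spp1, osteopontin, had medians of 0.339, 23.6 and 75.8 FPKM in these groups. Its SZ-A against NC difference was 3.73 ± 0.42 (adjusted p = 0.00032, limma). Lgals3 had medians of 52.0, 614 and 1489 FPKM. Ctsk had medians of 7.78, 113 and 378 FPKM and rose by 3.99. Tyrobp, the signalling adaptor of Trem2, rose by 3.10, and Lipa, lysosomal acid lipase, by 2.55 (2.02 without NC replicate 6). Atp6v0d2, a proton pump subunit, rose by 3.51 and by 4.16 without NC replicate 6, a mouse with 58.4 FPKM against 1.41 to 8.01 FPKM in the other NC mice.

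Not every member of the list was called. Cd9, a tetraspanin, was at 27.4 to 38.1 FPKM in 5 NC mice and at 145 FPKM in NC replicate 6, against 43.8 to 138 FPKM in SZ-A mice. Its difference was 0.84 ± 0.39 (adjusted p = 0.266, limma), and 1.20 without that mouse (adjusted p = 0.0232, limma), under the log2 limit of 1.5. Cd63, another tetraspanin, had a difference of 0.59 (adjusted p = 0.347, limma). Acp5 averaged 97.8 FPKM in NC, 133 FPKM in SZ-A and 115 FPKM in HFD mice, with a SZ-A against NC difference of 0.90 (adjusted p = 0.46, limma). Plin2, which coats lipid droplets, had 2.15 ± 0.66 (adjusted p = 0.0867, limma), and 1.46 (adjusted p = 0.0325, limma) without NC replicate 6. Dcstamp, needed for cell fusion, had a difference of 1.40 (adjusted p = 0.00772, limma), below the limit of 1.5, although no SZ-A mouse overlapped NC.

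SZ-A replicates 5 and 6 had the highest list means, 7.57 and 7.35, while the other SZ-A mice had 5.79 to 6.41 and HFD mice 7.18 to 8.41. Leaving out NC replicate 6 and SZ-A replicate 5 together, a choice made after the data were seen, gave a list median of 1.91. Leaving out NC replicates 1 and 6 and SZ-A replicates 2 and 7, with the highest epididymal markers of their own groups, gave 2.09. The part of these libraries in the rise was not tested beyond these values.

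**Figure D2:**
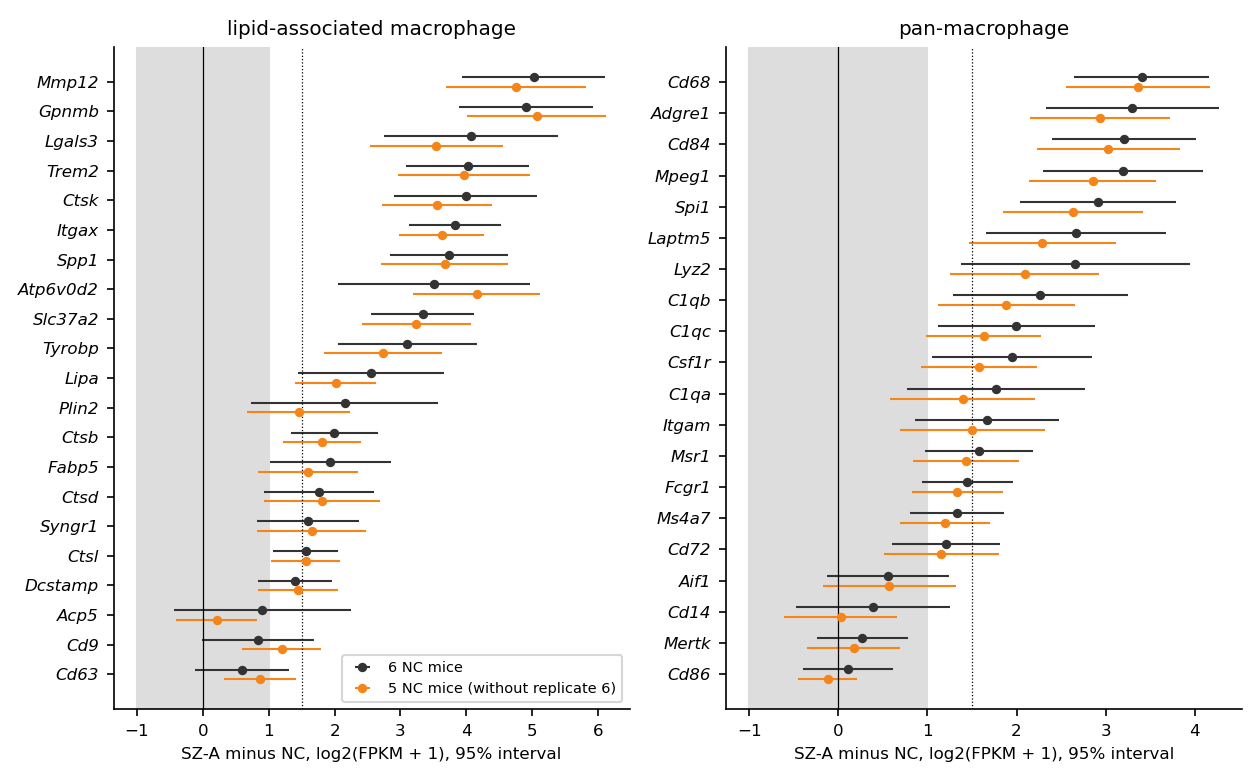
Difference of SZ-A from NC mice, log2(FPKM + 1), with its 95% interval for each gene of the lipid-associated macrophage list (left) and the pan-macrophage list (right), with all 6 NC mice (dark) and without NC replicate 6 (orange). The grey band marks 1 in both directions and the dotted line 1.5; Mmp12 is highest at 5.02, and Cd86 at 0.11 lies inside the band in both fits.

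Genes shared by most macrophages were also higher. Of 20 pan-macrophage genes 13 were higher (65.0%, beside 1.73% of all genes tested), with a list median of 1.86. Without NC replicate 6, 11 were higher with a median of 1.54. Adgre1, the macrophage marker F4/80, had medians of 6.09 FPKM in NC and 50.3 FPKM in SZ-A mice. Cd68, a lysosomal protein of macrophages, was at 14.4 to 39.1 FPKM in NC and at 130 to 491 FPKM in SZ-A mice, a difference of 3.40 ± 0.35 (adjusted p = 0.00021, limma). Mpeg1, a pore-forming protein, rose by 3.20 and Csf1r, the receptor for macrophage growth factor, by 1.95. Cd86, a co-stimulatory ligand, was within the interval, with a difference of 0.11 (95% interval -0.40 to 0.61). Its HFD against NC difference was 0.48 (adjusted p = 0.145, limma), so this is not read as a return to chow.

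Among the 11 resident macrophage genes tested of 13, 1 was higher (9.09%, beside 1.73% of all genes tested). It was Stab1, a scavenger receptor (1.5, adjusted p = 0.0374, limma). None was higher without NC replicate 6, where Stab1 had 1.20. With single mice omitted, 8 of 13 fits no longer called Stab1. The median of the list was 0.77, and 0.39 without that mouse, whose list mean was 1.01 against 2.86 to 4.50 in the other NC mice. Cd163, a haemoglobin scavenger receptor, had a difference of -0.10, with an interval of -1.29 to 1.08, and Lyve1, a hyaluronan receptor, one of 0.75 (-0.43 to 1.93). Those intervals were too wide to place either gene at the chow level. Without NC replicate 6 they had -0.63 (-1.44 to 0.19) and 0.26 (-0.61 to 1.13). Mrc1, the mannose receptor, had 1.67 (adjusted p = 0.0725, limma), and 1.18 (adjusted p = 0.0399, limma) without that mouse, under the log2 limit. Whether the resident list differed from the lipid-associated list was not tested.

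Receptors of microbial products were partly raised. Of 11 Toll-like receptor genes tested, 2 were higher (18.2%) and 4 had an interval inside 1 (36.4%), beside 1.73% and 72.2% of all genes tested. Among those inside, Tlr9 and Tlr11 averaged under 1 FPKM in both groups, where the added 1 keeps differences small. The higher ones were the endosomal receptors Tlr8 (2.27 ± 0.33, adjusted p = 0.00171, limma) and Tlr13 (2.97 ± 0.31, adjusted p = 0.00021, limma). Tlr13 was at 0.0638 to 2.40 FPKM in NC and at 7.84 to 26.4 FPKM in SZ-A mice, without overlap. Tlr2 had a difference of 1.02 (adjusted p = 0.0203, limma), under the limit, and Tlr4, the endotoxin receptor, one of 0.80 (adjusted p = 0.246, limma). Myd88, the shared adaptor, was close to the chow level at -0.08 (95% interval -0.56 to 0.39). Its HFD against NC difference was 0.21 (adjusted p = 0.417, limma), so its closeness to chow is not read as a return. The cytokine Tnf was at 0.0326 to 0.266 FPKM in NC and at 0.331 to 3.94 FPKM in SZ-A mice, which did not overlap, with a difference of 0.87 (adjusted p = 0.0699, limma) on a scale that understates changes of low genes. In the MHC class II list 1 of 10 was higher, beside 1.73% of all genes tested. It was H2-DMb1, a peptide-loading chain (1.63, adjusted p = 0.00273, limma). H2-Aa had 1.58 (adjusted p = 0.194, limma) and 0.85 without NC replicate 6, a mouse with 4.83 FPKM against 78.9 to 168 FPKM.

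Lysosomal genes were mixed. Of 36 proton pump and lysosome genes 6 were higher (16.7%) and 14 had an interval inside 1 (38.9%), beside 1.73% and 72.2% of all genes tested. The median was 0.43 (0.53 without NC replicate 6). Ctss, cathepsin S, rose by 3.58 ± 0.46 (adjusted p = 0.00073, limma), from a range of 7.98 to 68.0 FPKM to one of 235 to 859 FPKM. Ctsz, cathepsin Z, rose by 2.46, Psap, the precursor of the saposins, by 1.72 and Lgmn, legumain, by 1.66. Atp6v0d1, a pump subunit, lay close to the chow level at 0.10 (95% interval -0.23 to 0.43), and Atp6v1a, another, had 1.04 (adjusted p = 0.00966, limma), under the limit. The HFD against NC difference of Atp6v0d1 was 0.51 (0.19 to 0.83, adjusted p = 0.0148, limma), also inside 1.

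Matrix genes gave fewer calls than macrophage genes. Of 25 collagens tested 2 were higher (8.0%) and 7 had an interval inside 1 (28.0%), beside 1.73% and 72.2% of all genes tested. Among those inside, Col4a3, Col4a4, Col7a1, Col8a2 and Col27a1 averaged under 1 FPKM in both groups, where the added 1 keeps differences small. Col4a5 and Col6a6 averaged more. The list median of 1.07 fell to 0.54 without NC replicate 6. Col16a1, a fibril-associated collagen, was the clearer, at 1.01 to 2.25 FPKM in NC and 5.17 to 13.8 FPKM in SZ-A mice (1.93 ± 0.20, adjusted p = 0.00021, limma). HFD mice had 4.40 to 10.3 FPKM, and the SZ-A against HFD difference was 0.28 (adjusted p = 0.308, limma). Col1a1, the main fibril chain, had medians of 14.4 FPKM in NC, 57.0 FPKM in SZ-A and 172 FPKM in HFD mice. Its SZ-A against NC difference was 2.13 ± 0.56 (adjusted p = 0.0478, limma) and 1.56 (adjusted p = 0.0187, limma) without NC replicate 6, and with single mice omitted 9 of 13 fits no longer called it. Col3a1 had 2.07 (adjusted p = 0.0943, limma), and 1.36 (adjusted p = 0.0292, limma) without that mouse, under the log2 limit. Col4a1, of basement membranes, had 1.07 (adjusted p = 0.421, limma) and 0.32 without that mouse.

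None of 34 other matrix genes was past the threshold, with a median of 0.90 that was 0.40 without NC replicate 6. Intervals inside 1 numbered 4 (11.8%), and 12 without that mouse (35.3%), beside 72.2% and 77.1% of all genes tested. Dcn, decorin, had a difference of 0.60 with an interval of -1.0 to 2.20, and -0.21 (-0.999 to 0.58) without it, where it was inside 1. Sparc, a collagen-binding protein, had 1.60 (adjusted p = 0.211, limma), and Fn1, fibronectin, 1.23 (adjusted p = 0.187, limma). Without NC replicate 6 Sparc had 0.86 (adjusted p = 0.114, limma) and Fn1 0.85 (adjusted p = 0.287, limma).

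Of 32 matrix enzymes and inhibitors 6 were higher (18.8%, beside 1.73% of all genes tested), and 4 without NC replicate 6. These were Mmp12 and Adam8, described above, Mmp19 (2.89), the inhibitor Timp1 (1.94), the gelatinase Mmp2 (1.76) and the crosslinking enzyme Loxl1 (1.67). Mmp12 is also counted in the lipid-associated macrophage list. Mmp2 (1.28) and Loxl1 (1.24) were the pair under the limit without that mouse, and leaving out 1 mouse ended their calls in 11 and 10 of 13 fits. Timp1 had 0.237 to 5.10 FPKM in NC and 3.44 to 13.9 FPKM in SZ-A mice, so the groups overlapped through NC replicate 6. HFD mice averaged 47.4 FPKM of Timp1, and the SZ-A against HFD difference was -2.07 (adjusted p = 0.00285, limma).

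Adipokine genes moved in both directions. Of 22 tested, 3 were higher (13.6%, beside 1.73% of all genes tested). Without NC replicate 6, 4 were higher and 1 was lower, beside 1.45% and 0.122% of all genes tested. Sfrp5, a secreted Wnt inhibitor of adipocytes, had 18.2 to 172 FPKM in 5 NC mice and 1.08 FPKM in NC replicate 6, against 112 to 592 FPKM in SZ-A mice. Its difference was 3.32 ± 0.81 (adjusted p = 0.031, limma), and 2.55 (adjusted p = 0.0141, limma) without that mouse. Ccn5, a matricellular Wnt target, had 0.392 to 17.2 FPKM in NC and 54.9 to 216 FPKM in SZ-A mice, with no overlap (3.73 ± 0.51, adjusted p = 0.00116, limma). HFD mice averaged 53.5 FPKM of Ccn5, and the SZ-A against HFD difference was 0.77 (adjusted p = 0.0505, limma). Metrnl, a secreted factor, rose by 1.58 (adjusted p = 0.0388, limma). Leaving out 1 mouse ended the call for Metrnl in 8 of 13 fits and that for Sfrp5 in 6.

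Lep, the satiety hormone leptin, was at a lowest, median and highest of 1.17, 65.3 and 189 FPKM in NC mice and 109, 401 and 632 FPKM in SZ-A mice. Its difference was 2.89 ± 0.85 (adjusted p = 0.0736, limma), and 2.0 (adjusted p = 0.0237, limma) without NC replicate 6, past the threshold. HFD mice had a median of 339 FPKM, and the SZ-A against HFD difference was 0.04 (adjusted p = 0.959, limma). Adipoq had medians of 1482 FPKM in NC and 1204 FPKM in SZ-A mice. Its difference was 0.88 (95% interval -1.01 to 2.77) with NC replicate 6 and -0.09 (-0.96 to 0.78) without it, where it lay inside 1.

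Cfd, adipsin, a complement factor made by adipocytes, was at 4730 to 13270 FPKM in 5 NC mice and at 228 FPKM in NC replicate 6, against 476 to 2993 FPKM in SZ-A mice. With 6 NC mice the difference was -1.79 (adjusted p = 0.285, limma). Without NC replicate 6 it was -2.63 (adjusted p = 0.0129, limma) and the groups did not overlap. HFD mice averaged 234 FPKM, and the SZ-A against HFD difference was 2.63 (adjusted p = 0.00331, limma). Retn, resistin, had -0.52 (adjusted p = 0.735, limma), and -1.26 (adjusted p = 0.114, limma) without that mouse.

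**Figure D3:**
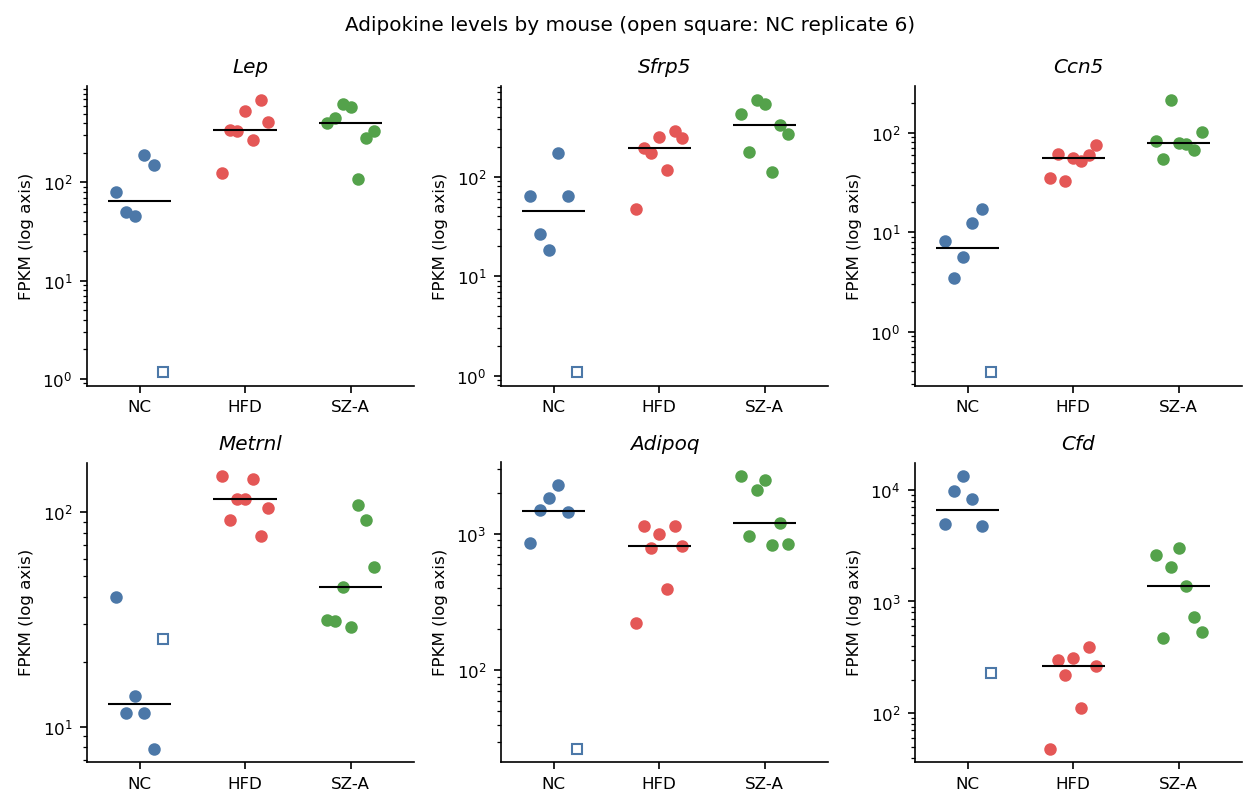
FPKM of 6 adipokine genes in each mouse on a log axis for NC (n = 6), HFD (n = 7) and SZ-A (n = 7), with the group median as a line and NC replicate 6 as an open square. Ccn5 in SZ-A mice (54.9 to 216 FPKM) lies above every NC mouse, and Cfd in SZ-A mice lies below every NC mouse but replicate 6.

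Few genes stayed lower than in lean fat, and they depended on the mice used. Those past the threshold included, named after their values were seen, Acsm3, Gsta4, Egln3, Arl4d, Slc2a3, Gprc5a and Ripk4. Acsm3, a mitochondrial acyl-CoA synthetase, fell by 2.21 on the log2 scale (adjusted p = 0.0287, limma). Gsta4, which detoxifies lipid peroxidation products, fell by 1.76 on the log2 scale (adjusted p = 0.0154, limma), from 11.9 to 36.4 FPKM in NC to 2.25 to 16.3 FPKM in SZ-A mice.

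Leaving out 1 mouse ended the call for Acsm3, Gprc5a and Ripk4 in 6 of 13 fits each, for Arl4d in 5 and for Gsta4 in none, and those of Egln3 and Slc2a3 in 9 each. Without NC replicate 6 Egln3 had -1.49 (adjusted p = 0.0713, limma). SZ-A replicates 2 and 7, with the highest epididymal markers of their group, also had its highest levels of Egln3, Slc2a3, Gprc5a and Ripk4. In that order of mice they had 3.88 and 4.62 FPKM of Egln3 and 5.44 and 4.01 FPKM of Ripk4. The same did not hold for Acsm3, Gsta4 and Arl4d. What part these libraries had in the calls was not tested.

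Without NC replicate 6 the largest falls included Cyp2e1, Irf4, Acsm3 and Cfd. Cyp2e1, a cytochrome P450, was at 999 to 3791 FPKM in 5 NC mice and 45.6 FPKM in NC replicate 6, against 25.7 to 509 FPKM in SZ-A mice. Its difference was -3.77 (adjusted p = 0.00551, limma) without that mouse and -2.86 (adjusted p = 0.116, limma) with it. Irf4, a transcription factor that promotes lipolysis in adipocytes, had -2.71 (adjusted p = 0.0148, limma) and -2.26 (adjusted p = 0.0662, limma) in the same order. Fam13a had -2.53 (adjusted p = 0.00878, limma) and C6, a complement component, -2.24 (adjusted p = 0.00649, limma) without NC replicate 6, and neither passed with it.

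Markers of other cells around the fat were also lower by median. The 3 mesothelial markers tested of 11 had a median of -3.13, with list means of 3.02 to 5.93 in NC and 0.203 to 4.66 in SZ-A mice, and the 7 epididymal epithelium markers had a median of -1.91, with list means of 2.43 to 8.48 and 2.17 to 7.09. None of these markers was past the threshold, and the defining markers Msln, Upk3b, Wt1, Epcam and Wfdc2 were not analysed here. Their part in the falls was not tested. Without NC replicates 1 and 6 and SZ-A replicates 2 and 7, 72 genes were lower.

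**Figure D4:**
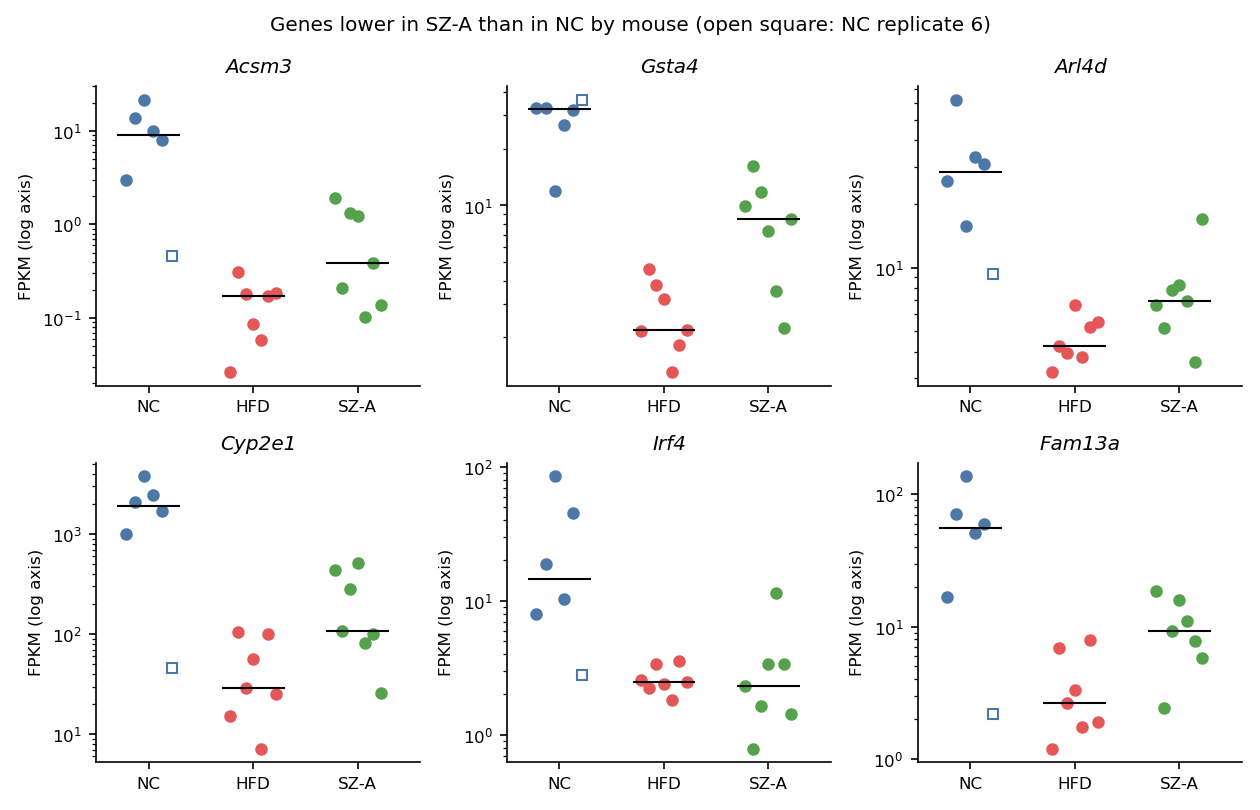
FPKM of 6 genes lower in SZ-A than in NC mice, past the threshold with 6 NC mice (Acsm3, Gsta4, Arl4d) or only without NC replicate 6 (Cyp2e1, Irf4, Fam13a), in each mouse on a log axis with the group median as a line; the open square is NC replicate 6. NC replicate 6 has 45.6 FPKM of Cyp2e1 against 999 to 3791 FPKM in the other NC mice.

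Genes of energy metabolism lay inside 1 at shares to be set beside those of all genes tested, 72.2% with 6 NC mice and 77.1% without NC replicate 6. Of 23 fatty acid oxidation genes tested none was past the threshold and 19 had an interval inside 1, with a median of 0.04, and 20 without NC replicate 6. Acadl, an acyl-CoA dehydrogenase, had 54.3 to 143 FPKM in NC mice and 62.2 to 146 FPKM in SZ-A mice, a difference of 0.15 (95% interval -0.47 to 0.76). Hadha, of the trifunctional enzyme, had 0.36 (0.07 to 0.64) and Cpt1a, which admits fatty acids to mitochondria, 0.30 (-0.35 to 0.95). NC replicate 6 had 106.9 FPKM of Cpt1a, against 23.4 to 39.65 FPKM in the other NC mice. Without that mouse Cpt1a had 0.62 (0.27 to 0.97, adjusted p = 0.0432, limma), higher than chow by adjusted p though still inside 1. Of 99 nuclear genes of the respiratory chain none was past the threshold and 85 were inside 1 in either fit, with a median of -0.13. Sdha, of complex II, had -0.28 (-0.83 to 0.27) and Uqcrc1, of complex III, -0.05 (-0.47 to 0.37). By contrast none of the 12 mitochondrially coded genes had an interval inside 1. The shares inside 1 were 82.6% for fatty acid oxidation and 85.9% for the nuclear respiratory chain, near the background, and are not read as a result about these genes. HFD mice against NC also lay inside 1 for Acadl (0.27, -0.24 to 0.77), Sdha (-0.50, -0.85 to -0.14) and Uqcrc1 (0.10, -0.18 to 0.37). The closeness of these genes to chow in SZ-A mice is therefore not read as a return. Cpt1a (0.96, 0.33 to 1.60) and Hadha (0.81, 0.59 to 1.03) were not inside 1 in HFD mice.

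Of 21 branched-chain amino acid genes 14 were inside 1 (66.7%), and 11 without NC replicate 6 (52.4%). Ivd, an enzyme of leucine breakdown, had -0.26 (-0.96 to 0.44), and -0.56 (-1.06 to -0.05) without that mouse. Of 20 insulin signalling genes 11 were inside 1 (55.0%), and 13 without NC replicate 6 (65.0%), and none was past the threshold. Akt2 had -0.01 (-0.85 to 0.83) and Irs2 -0.10 (-0.84 to 0.65), while Insr, the insulin receptor, had -0.50 (-1.003 to 0.01).

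Adipocyte genes could not be placed at the chow level with 6 NC mice. Of 30 genes 1 was higher, beside 1.73% of all genes tested. It was Lipa, which is also counted in the lipid-associated macrophage list. Inside 1 were 2 genes, and 9 without NC replicate 6, beside 72.2% and 77.1% of all genes tested. Without that mouse the median moved from 0.54 to 0.01. Fabp4, a fatty acid carrier, was at 1442 to 3126 FPKM in 5 NC mice and at 51.0 FPKM in NC replicate 6. It was at 1052 to 3140 FPKM in SZ-A mice, a difference of 0.79 (-0.97 to 2.55), and -0.10 (-0.90 to 0.69) without that mouse. Lipe, hormone-sensitive lipase, went from 0.71 to 0.07 (-0.70 to 0.83), and Slc2a4, the insulin-responsive glucose transporter, from 0.73 to 0.23 (-0.51 to 0.96). Of 15 fatty acid synthesis genes none was past the threshold and 6 were inside 1 (40.0%), among them Srebf1 (0.09, -0.56 to 0.75), whereas Fasn had 0.28 (-0.61 to 1.18).

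**Figure D5:**
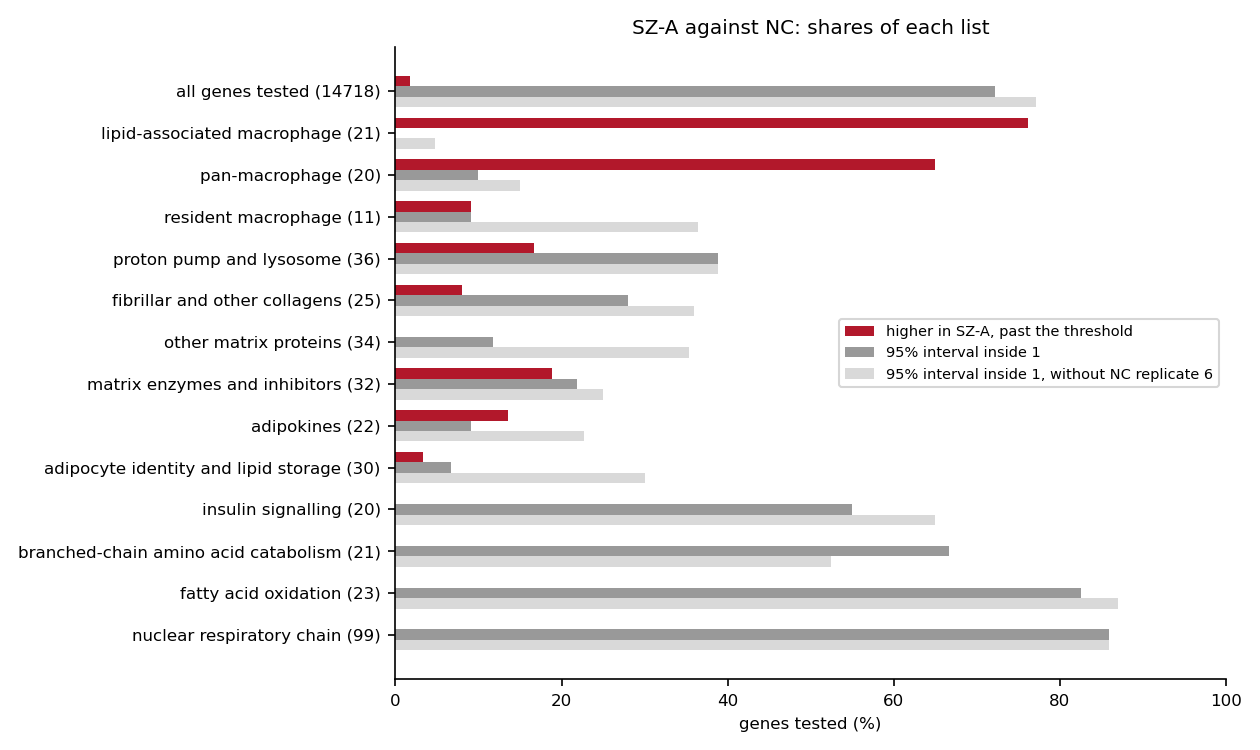
Share of the genes tested in each list, in percent (number tested in brackets), that were higher in SZ-A than NC mice past the threshold, and whose 95% interval lay inside 1 with 6 NC mice or without NC replicate 6. With 6 NC mice, 16 of 21 genes of the lipid-associated macrophage list were higher and none was inside 1. Of the nuclear respiratory chain genes 85 of 99 were inside 1, where 72.2% of all genes tested were.

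Markers of other cells were counted in the same way. Of 25 cell cycle genes none passed both limits and 9 passed by adjusted p alone, beside 4.15% of all genes. Mki67, a proliferation marker, had 0.99 (adjusted p = 0.038, limma) and Mcm6, of the replicative helicase, 0.85 (adjusted p = 0.0119, limma). No gene of the mast cell (7 tested), T cell (10), B cell (6), endothelial (15) or smooth muscle (11) lists was past the threshold. Of 18 progenitor and fibroblast genes 1 was higher, Cd248 (5.56%, beside 1.73% of all genes tested), and none without NC replicate 6. The mast cell protease Cpa3 had 0.85 (adjusted p = 0.216, limma) in SZ-A mice and 3.49 (adjusted p = 0.0005, limma) in HFD mice, both against NC. The endothelial list had a median of 0.70, and 0.15 without NC replicate 6, whose list mean was 1.49 against 4.11 to 5.68 in the other NC mice.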

How the data were processed

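RNA-seq of eWAT was analysed from 6 NC, 7 HFD and 7 SZ-A mice, grouped by the labels. The authors aligned reads to GRCm38 with HISAT2, and per the labels counted them with featureCounts 1.5.0-p3. The values deposited by the authors are FPKM of 14776 genes, each above 0 in every mouse. Reads recovered from FPKM and GENCODE M21 exon lengths came out whole, within 0.01 reads for values under 1000, for 95.9% to 96.3% of values per mouse, and were used in 1 alternative only.

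Groups were compared with limma 3.58.1 (R 4.3.3, trend) on log2(FPKM + 1), with a mean of at least 0.1 FPKM. On this scale fold changes of low genes are understated. In data simulated for the SZ-A against NC comparison on 14718 genes, 179 of 200 genes changed by a log2 of 2 were called. So were 5 unchanged genes. The simulation drew independent noise and added the change on the log scale, so it held no outlying mouse and no understated low genes. It therefore does not give the power of the fit on these mice. Same-numbered NC and SZ-A mice were not paired: the correlations of their deviations ran from -0.415 to 0.593 over 6 pairs.

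Named genes were the 10 largest rises and falls without overlap, the 5 largest falls without NC replicate 6, and, per list, members past the threshold, of highest FPKM or inside the interval; 1 gene that this rule names is not reported here. Members and lists were chosen with earlier results of these data known. P-values measure the spread between mice. Alternatives covered pseudocount, filter, scaling, model, thresholds and mice left out.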

Additional observations from a re-analysis of the deposited data

Results flagged for a closer look

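A mouse far from the rest of its group was looked for in the 6 NC and 7 SZ-A mice, for each named gene and list, as the gap of the end value over the group's range on the log2(FPKM + 1) scale. The limit was passed in 31 of 236 groups tested, and NC replicate 6 accounted for 25 of them. By chance about 1 in 20 would pass if the groups were independent. They were not, because all came from the same mice and the lists hold named genes, so the count is not judged against that rate. NC replicate 6 was lowest for Lipa (0.75), Ctsk (0.746), Plin2 (0.648), H2-Aa (0.777), Ctsz (0.639), Col3a1 (0.679), Col4a1 (0.678), Sparc (0.761), Dcn (0.642) and Lep (0.685). It was also lowest for Adipoq (0.779), Cfd (0.746), Retn (0.74), Cyp2e1 (0.697), Akt2 (0.684), Slc2a4 (0.647), Lipe (0.712), Fabp4 (0.811) and Ivd (0.734). The means of the collagen (0.724), adipokine (0.785) and adipocyte lists (0.677), and of a list of 22 inflammatory and metabolic genes (0.674), were lowest in it too. It was highest for Cd9 (0.804) and Cpt1a (0.657).

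The other mice that stood apart did so for single genes or lists. NC replicate 5 was highest for Atp6v1a (0.651) and NC replicate 3 lowest for Gsta4 (0.721). SZ-A replicate 7 was highest for the smooth muscle list (0.648). SZ-A replicate 5 was lowest for Uqcrc1 (0.603) and highest for the neutrophil list (0.84), of which 3 of 8 genes were tested. SZ-A replicate 6 was highest for Mcm6 (0.694).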

How the results depend on the processing

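The count of higher genes, 255, stayed within 1.5 times under most settings. It was 391 with log2(FPKM + 0.01), 404 with voom on recovered reads, 611 by adjusted p alone and 574 with a fold limit of 1.5. With the replicate number as a block it was 108, and 18 named genes, Lgals3, Tyrobp and Lipa among them, lost their call. The numbers share no pairing in the labels, and 1 of 6 NC mice correlated best with its own number. Leaving out 1 mouse gave 185 to 299 higher genes. The count of lower genes, 8, was 30 with all 3 groups in the fit, 140 with array quality weights, 3 by an exact rank-sum test, 67 by adjusted p alone and 50 with a fold limit of 1.5. Leaving out 1 mouse gave 2 to 41, leaving out NC replicates 1 and 6 and SZ-A replicates 2 and 7 gave 72, and leaving out NC replicate 6 with SZ-A replicate 5 gave 13. The last pair of settings was chosen after the data were seen, and the cause of these shifts was not tested. Genes with an interval inside 1, 10628 in the main fit, numbered 7757 with log2(FPKM + 0.1), 7154 with log2(FPKM + 0.01) and 7194 with voom on recovered reads. They numbered 5842 when the interval had to lie inside a fold of 1.5, and 9997 to 11354 when 1 mouse was left out. Of 43 named genes past the threshold, 24 stayed past it in all 11 settings that kept every mouse and 30 in all 13 fits that left out 1 mouse. No called value changed sign, whereas 42 values of genes not called did. FPKM below about 1 are compressed by the added 1, and 57 of the 255 higher genes had under 10 recovered reads in at least 1 of the 13 mice.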
